A study of Mus musculus with 8 samples.

Results

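The haemoglobin chains described here are 8 genes of the alpha and beta globin clusters of the mouse, taken as the rows of the deposited count table whose symbol was Hbb-bs, Hbb-bt, Hba-a1, Hba-a2, Hbb-y, Hbb-bh1, Hbb-bh2 or Hba-x, out of 21878 rows in all. RNA from peripheral blood of female wild-type C57BL/6 mice aged 6 to 8 weeks was sequenced in 4 control and 4 stress samples. Mice of the stress group were restrained for 6 hours in a tube with air holes and received neither food nor water. Their littermates of the control group stayed in the cage and also went without both, so that fasting was shared and restraint was not. Blood was frozen, and libraries were made from the same mass of total RNA in every sample and held 25978683 to 39014775 counts. The samples are bulk libraries of blood, in which fewer cells of a type and less RNA per cell cannot be told apart, and whether red cells were removed before RNA extraction is not given in the sources used here.

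Haemoglobin of the adult mouse is a tetramer of a pair of alpha and a pair of beta chains, each of which holds a heme that binds oxygen. C57BL/6 mice carry the "single" haplotype of the beta locus, in which the adult chains come from Hbb-bs and Hbb-bt, while Hba-a1 and Hba-a2 are the adult alpha genes. Hbb-y and Hbb-bh1 (beta-like) and Hba-x (alpha-like, zeta) are used by the primitive red cells of the embryo. Red cells lose their nucleus before or soon after they enter the blood, so that globin RNA in circulation sits mostly in reticulocytes, the youngest red cells, which make no new RNA.

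The beta genes lie on the minus strand of chromosome 7 and the alpha genes on the plus strand of chromosome 11 (GRCm38, GENCODE M21 annotation). Hbb-bs spans chr7:103826534-103828096, Hbb-bt chr7:103812524-103813996, Hbb-y chr7:103851749-103853216, Hbb-bh1 chr7:103841637-103843164 and Hbb-bh2 chr7:103839124-103840520. Hba-a1 spans chr11:32283511-32284465, Hba-a2 chr11:32296489-32297298 and Hba-x chr11:32276400-32278116. None of the 8 genes overlaps another annotated gene.

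The adult genes of each pair are almost the same sequence, and this decides how far their counts can be told apart. Over 429 coding bases Hba-a1 and Hba-a2 differ at 1 base (C381T, the base of Hba-a1 first, counted from the first base of the start codon), and over 444 coding bases Hbb-bs and Hbb-bt also differ at 1 (C417T, the base of Hbb-bs first). The stretches around these bases are shown 5′ to 3′ from the GENCODE M21 transcripts, with the embryonic chains over the same coding bases. Capitals mark the bases that differ from the partner (Hba-a1 against Hba-a2, Hbb-bs against Hbb-bt), and for Hba-x and Hbb-y those that differ from Hba-a1 and Hbb-bs. The alpha stretches run from coding base 336 to 425 and the beta stretches from 355 to 444.
Hba-a1: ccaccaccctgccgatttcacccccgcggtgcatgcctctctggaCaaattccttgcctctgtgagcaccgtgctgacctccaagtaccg
Hba-a2: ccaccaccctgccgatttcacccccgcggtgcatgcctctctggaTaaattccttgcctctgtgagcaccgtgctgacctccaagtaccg
Hba-x: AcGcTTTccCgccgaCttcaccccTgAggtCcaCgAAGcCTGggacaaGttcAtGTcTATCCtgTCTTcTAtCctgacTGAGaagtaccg
Hbb-bs: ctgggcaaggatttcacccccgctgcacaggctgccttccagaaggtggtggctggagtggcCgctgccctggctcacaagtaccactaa
Hbb-bt: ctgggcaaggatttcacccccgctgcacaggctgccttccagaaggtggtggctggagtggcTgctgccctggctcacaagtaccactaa
Hbb-y: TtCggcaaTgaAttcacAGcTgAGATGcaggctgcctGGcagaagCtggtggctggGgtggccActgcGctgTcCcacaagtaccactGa
In these stretches Hba-x differs from Hba-a1 at 37 bases and Hbb-y from Hbb-bs at 21. Over the whole coding sequence Hbb-y was 74.3% identical to Hbb-bs and Hba-x 62.0% identical to Hba-a1.

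Of all windows of 50 bases in a transcript, 65.8% in Hbb-bs and 58.3% in Hbb-bt occur in the partner as well, as do 67.5% in Hba-a1 and 86.9% in Hba-a2. The longest unbroken stretch in common is 430 bases for the beta pair and 415 for the alpha pair. No window of this length in Hbb-y, Hbb-bh1, Hbb-bh2 or Hba-x occurs in an adult chain. The submitters' processing notes name HISAT2, featureCounts and mm10. How reads that match both copies were counted is not given, so the division of counts between Hba-a1 and Hba-a2, and between Hbb-bs and Hbb-bt, is uncertain. A sum over a pair does not depend on that division, although it would be lower if such reads were left out. The embryonic chains are not touched by it.

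The sequences just before the start sites were compared as well, because the members range from the most abundant message of the blood to chains without a count. RefSeq promoter windows (GRCm38.p6) were found for 7 of the 8 genes, with none for Hbb-bh1. The starts are those of RefSeq, which can differ from the ends of the GENCODE spans above. For Hbb-bs, Hba-a1 and Hba-x the 150 bases searched lie inside those spans. The 150 bases before the start were searched on both strands for the TATA box core TATAA, for CCAAT as in CCAAT boxes, for the motif CACCC that KLF1 can bind and for the motif GATAA that GATA1 can bind. Those of 1 abundant and 1 trace chain are shown with every match in capitals, Hba-a2 (chr11:32296342-32296491, plus strand) and Hbb-y (chr7:103853208-103853357, minus strand).
Hba-a2: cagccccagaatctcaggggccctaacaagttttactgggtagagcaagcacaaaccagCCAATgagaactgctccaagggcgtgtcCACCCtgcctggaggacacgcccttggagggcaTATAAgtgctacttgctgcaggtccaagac
Hbb-y: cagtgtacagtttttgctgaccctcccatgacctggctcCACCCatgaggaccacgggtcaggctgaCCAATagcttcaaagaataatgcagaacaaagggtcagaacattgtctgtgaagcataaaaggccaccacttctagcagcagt
CACCC was found in 6 of the 7 windows and in 36.9% of the 27025 promoters of the table, CCAAT in 5 and 25.3%, TATAA in 5 and 14.7%, and GATAA in 1 (Hba-x) and 13.6%. The windows of Hba-a1 and Hba-a2 share an unbroken run of 147 bases. The beta windows are less alike, and Hbb-bs and Hbb-bt share a run of at most 14 bases. These matches describe letters only.

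The adult chains were the most abundant messages of the blood. Ranked by counts summed over the 8 samples, Hbb-bs came first, Hba-a1 next and Hbb-bt after it, ahead of Alas2, which encodes the first enzyme of heme synthesis in red cells, and Hba-a2 was the tenth. Hbb-bs, Hba-a1 and Hbb-bt were the 3 rows that took more than 5% of any sample. Hbb-y ranked 10712 with 198 counts in all, Hba-x 13011 with 25 and Hbb-bh1 15668 with 2, and Hbb-bh2 had no count in any sample. Counts were also taken per kilobase of exon and 1000000 total counts, which adjusts for the length of a gene. Hbb-bs then lay between 407620 and 595057 over the 8 samples, Hba-a1 between 194213 and 277340, and Hbb-bt between 64091 and 99537. Hba-a2 lay between 3731 and 7126, Hbb-y between 0.445 and 2.26, and Hba-x between 0 and 0.305 on the same scale. These ranges did not overlap between neighbours in that order, and the next pair, Hba-x and Hbb-bh1 (0 to 0.103), did overlap. Between Hbb-bs and Hbb-bt, and between Hba-a1 and Hba-a2, the division of counts is uncertain. The order within these pairs therefore cannot be read as one of levels.

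The raw counts of the chains were close to even across the libraries, while those of all other genes were not. The 8 chains together had 19217974, 20080239, 20239957 and 20111640 counts in control replicates 1 to 4 and 18607982, 20873696, 19622968 and 17382877 in stress replicates 1 to 4. Counts of all other genes were 12253171, 15018139, 18774818 and 11412556 in the control group and 9377937, 8782029, 6355715 and 11009882 in the stress group. The chains spanned a 1.20-fold range over the 8 libraries with a coefficient of variation of 5.65%, against a 2.95-fold range and 33.2% for all other genes. The groups overlapped in the counts of the chains, whereas every stress sample had fewer counts outside the chains than every control sample. Total counts were also lower in every stress sample (25978683 to 29655725) than in every control sample (31471145 to 39014775). These raw counts therefore also carry a difference in depth. Taken as a share of total counts, the part outside the chains overlapped between the groups. Among single chains the coefficient of variation of raw counts was 4.71% for Hbb-bt, 6.28% for Hbb-bs, 7.67% for Hba-a1 and 20.5% for Hba-a2.

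**Figure D1:**
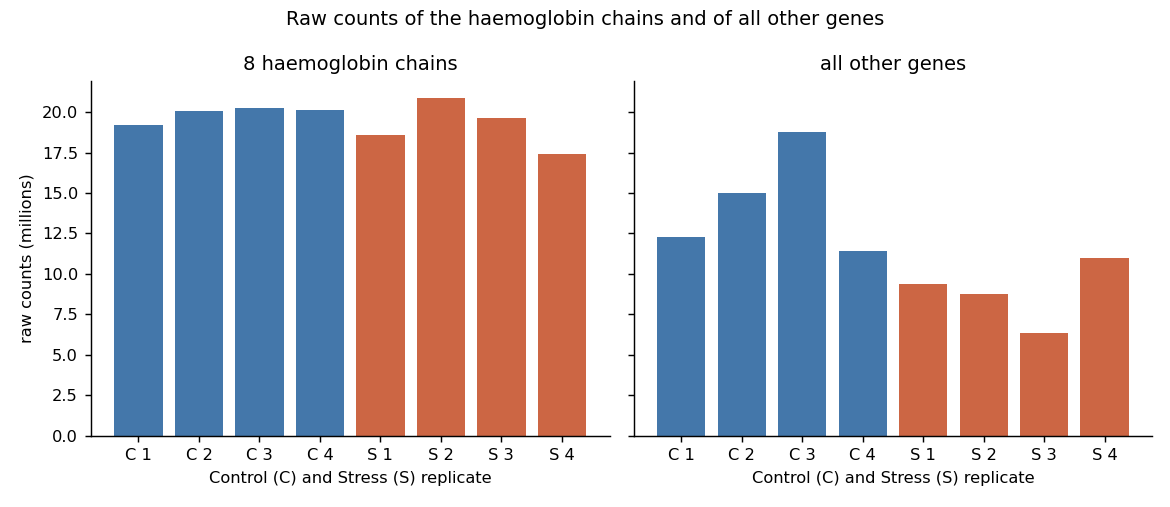
Raw counts (axis in units of 1000000) of the 8 haemoglobin chains together (left) and of all other genes (right) in each control (C) and stress (S) library, 1 bar per library. The bars of the chains lie between 17382877 and 20873696 counts in both groups, while the bars of all other genes range from 6355715 to 18774818 and are lower in every stress library. Total counts are lower in every stress library as well.

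The share of the library taken by the chains varied more than their raw counts. It was 61.1%, 57.2%, 51.9% and 63.8% in control replicates 1 to 4 and 66.5%, 70.4%, 75.5% and 61.2% in stress replicates 1 to 4. Stress replicate 4 lay inside the range of the control group, and control replicate 3 was the lowest of all 8. Group means of 58.5% ± 5.17 (control) and 68.4% ± 6.06 (stress, SD, n = 4 each) were 9.92 percentage points apart, 12.3 without stress replicate 4 and 7.72 without control replicate 3. For every count outside them, the chains had 1.08 to 1.76 counts in the control group and 1.58 to 3.09 in the stress group. At this depth the 95% Wilson interval of a share was at most 0.019 percentage points wide on either side, which covers counting error only.

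Hbb-bs, the adult beta gene with more counts, took 36.1%, 32.4%, 31.3% and 36.5% of the counts in the control samples and 38.1%, 40.9%, 45.7% and 35.7% in the stress samples. Stress replicate 4 fell below control replicate 4, and the other 3 stress samples lay above every control sample. The mean share was 1.18 times that of the control group (two-sided exact permutation test, p = 0.0857, adjusted p = 0.114 over the 4 adult chains).

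Hbb-bt, the adult beta gene with fewer counts, took 6.18%, 5.24%, 4.51% and 6.09% in the control samples and 6.52%, 6.50%, 7.00% and 5.98% in the stress samples. Stress replicate 4 lay below control replicates 1 and 4, and the other 3 stress samples lay above every control sample. The mean share was 1.18 times that of the control group (two-sided exact permutation test, p = 0.0857, adjusted p = 0.114).

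Hba-a1, the adult alpha chain with most of the alpha counts, took 18.5%, 19.3%, 15.8% and 21.0% in the control samples and 21.5%, 22.5%, 22.4% and 19.3% in the stress samples. Stress replicate 4 again lay within the control range. The mean share was 1.15 times that of the control group (two-sided exact permutation test, p = 0.0571, adjusted p = 0.114).

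Hba-a2, the adult alpha gene with few counts, took 0.295%, 0.249%, 0.297% and 0.262% in the control samples and 0.346%, 0.432%, 0.475% and 0.251% in the stress samples. The control samples were close together, and stress replicate 4 lay among them while the other 3 stress samples were higher. The mean share was 1.36 times that of the control group (two-sided exact permutation test, p = 0.114, adjusted p = 0.114). Without stress replicate 4 the groups overlapped for none of the 4 adult chains. The exact permutation test then gave p = 0.0286 for Hbb-bs and Hba-a2, the smallest p that 4 samples against 3 allow, 0.0571 for Hba-a1 and 0.0857 for Hbb-bt. For none of the 5 chains tested for differential expression did every stress sample lie above every control sample, in shares of total counts or after TMM scaling, which holds for 0.247% and 11.1% of the 11718 tested genes.

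**Figure D2:**
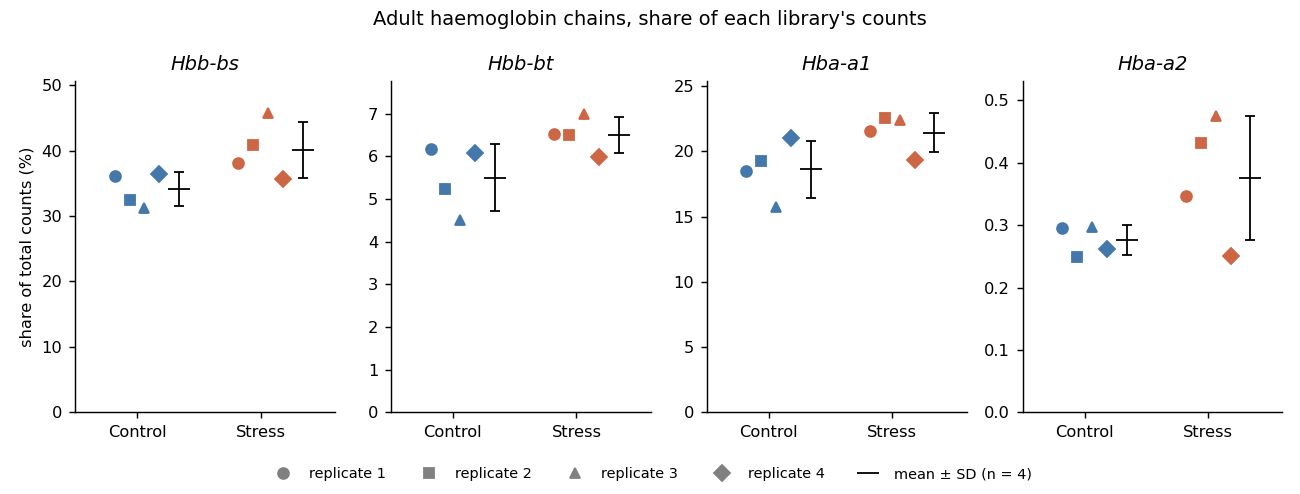
Share of total counts in percent taken by each adult chain, 1 point per sample with a symbol for the replicate number, and mean with SD (n = 4) as a black bar. For each of the 4 chains replicates 1 to 3 of the stress group lie above every control point, and replicate 4 (diamond) lies among the control points.

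Differential expression was tested with edgeR over the 11718 genes that reached 10 counts in 4 or more samples, a filter that 5 of the 8 chains passed. To be called, a gene had to pass an adjusted p of 0.01 with a log2 fold change beyond 1 in either direction. TMM, the normalization used, is built on the premise that most genes do not change, and its factors were 1.01 to 1.77 for control libraries and 0.507 to 1.10 for stress libraries. The choice of scale shifts every gene, and the median of all log2 fold changes was -0.02 on the TMM scale but -0.82 on the scale of total counts.

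None of the 5 chains tested was called in the edgeR fit on the TMM scale, where 1.69% of the tested genes were called up. The log2 fold change was 1.08 for Hbb-bs (SE 0.63, edgeR, adjusted p = 0.263), 1.06 for Hbb-bt (SE 0.49, adjusted p = 0.161) and 1.03 for Hba-a1 (SE 0.57, adjusted p = 0.242). Hba-a2 had the largest value of the 5, 1.37 (SE 0.39, edgeR, adjusted p = 0.0346). In this fit it was the one chain higher at an adjusted p below 0.05, as were 10.4% of the tested genes. Hbb-y stood at 0.33 (SE 0.54, edgeR, adjusted p = 0.721). Hba-a2 was also the one chain with an unadjusted p under 0.05 in the edgeR fit. Its counts depend on how reads common to it and Hba-a1 were counted, which is not given.

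Scaled by total counts, the chains stood at 0.23 for Hbb-bs (edgeR, adjusted p = 0.0386), 0.24 for Hbb-bt (adjusted p = 0.0895), 0.20 for Hba-a1 (adjusted p = 0.0930), 0.45 for Hba-a2 (adjusted p = 0.0392) and -0.49 for Hbb-y (adjusted p = 0.414), all on the log2 scale. Again 0 of the 5 were called, where 0.119% of the tested genes were called up and 6.22% were called down. Hbb-bs and Hba-a2 were higher at an adjusted p below 0.05, which held for 0.444% of the tested genes, while 49.6% were lower. Relative to the median of all tested genes the 4 adult chains were 1.05 to 1.39 higher with TMM and 1.02 to 1.27 higher with total counts, and Hbb-y was 0.35 and 0.33 higher.

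The study itself used DESeq2 with the same thresholds. Run here, DESeq2 called Hba-a1 (log2 fold change 1.03, SE 0.28, adjusted p = 0.00388), where it called 2.45% of the genes with an adjusted p up. With DESeq2 all 4 adult chains were higher at an adjusted p below 0.05 (Hbb-bs 0.0351, Hbb-bt 0.0395, Hba-a1 0.00388 and Hba-a2 0.0145), as were 12.2% of those genes. Over the alternatives tried for Hba-a1 the adjusted p ran up to 0.517. Without stress replicate 4, edgeR called Hba-a2 (log2 fold change 1.63, adjusted p = 0.00995) beside 1.51% of the tested genes, and over the alternatives the adjusted p of Hba-a2 ran up to 0.133.

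The balance between the chains was then compared within each library, where the total drops out. The counts of the adult alpha chains were 0.44, 0.52, 0.45 and 0.50 times those of the adult beta chains in the control samples and 0.49, 0.48, 0.43 and 0.47 in the stress samples. Of the 4 stress values, 3 lay inside the control range. On the log2 scale the control mean of the ratio was -1.07 ± 0.11 and the stress mean -1.09 ± 0.080 (SD, n = 4, two-sided exact permutation test, p = 0.743, adjusted p = 0.800 over 4 ratios). Taken per kilobase of exon, the log2 ratio was -1.16 and -1.19 (exact permutation test, p = 0.743).

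Hbb-bt made up 14.6%, 13.9%, 12.6% and 14.3% of the adult beta counts in the control samples and 14.6%, 13.7%, 13.3% and 14.4% in the stress samples. Control replicate 3 was the lowest sample, and the groups overlapped almost entirely. The means were 13.8% ± 0.893 and 14.0% ± 0.605 (SD, n = 4, two-sided exact permutation test, p = 0.800, adjusted p = 0.800). Hba-a2 made up 1.57%, 1.27%, 1.85% and 1.23% of the adult alpha counts in the control samples and 1.58%, 1.88%, 2.08% and 1.28% in the stress samples. Stress replicates 2 and 3 were above all control samples, and stress replicate 4 lay near the bottom of the control range. The means were 1.48% ± 0.286 and 1.71% ± 0.349 (SD, n = 4, two-sided exact permutation test, p = 0.257, adjusted p = 0.743). Both shares depend on how reads common to the copies were counted.

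Hbb-bs was also set against Alas2. Per Alas2 count there were 16.2, 18.1, 19.9 and 14.9 counts of Hbb-bs in the control samples and 15.8, 20.9, 22.2 and 17.4 in the stress samples. In each group replicates 2 and 3 were the higher ones, and the groups overlapped. The log2 ratio had a mean of 4.10 ± 0.18 without and 4.24 ± 0.23 with restraint (SD, n = 4, two-sided exact permutation test, p = 0.371, adjusted p = 0.743). With 4 samples against 4 the smallest p is 0.0286, and none of the 4 ratios passed 0.05.

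**Figure D3:**
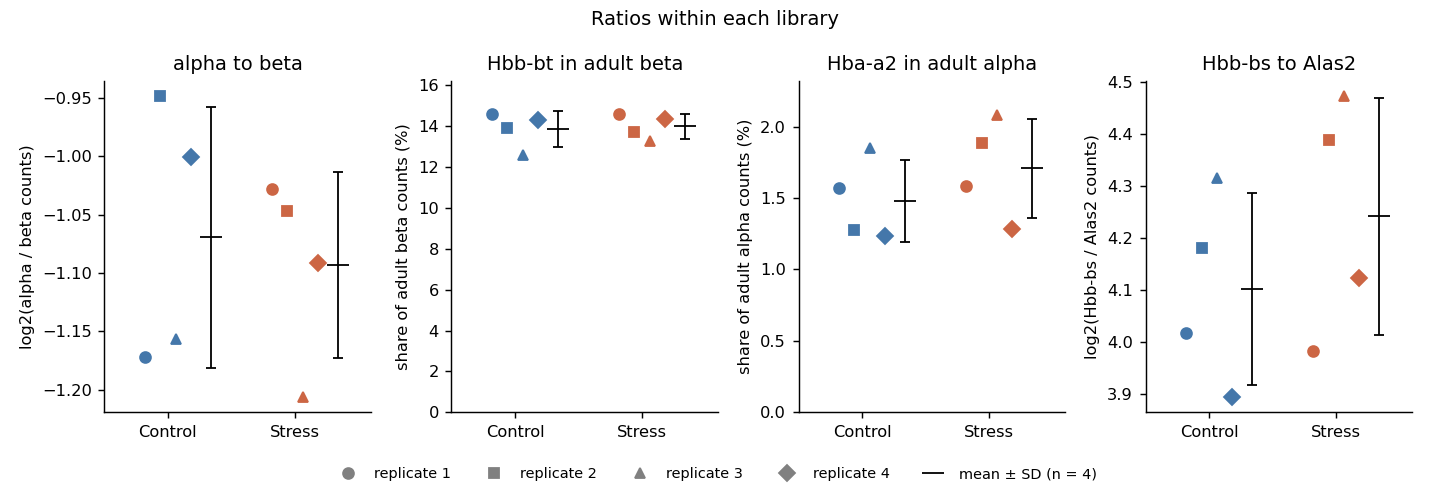
The 4 ratios within each library, 1 point per sample with a symbol for the replicate number and mean with SD (n = 4) as a black bar. The outer panels show log2 ratios on axes that do not start at 0 and the middle panels show percentages, and in every panel the points of the groups overlap.

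Hbb-y, the embryonic epsilon-like chain, was detected in every sample at a trace level, with 22, 33, 25 and 45 counts in the control samples and 24, 19, 22 and 8 in the stress samples. Per 1000000 adult haemoglobin counts this was 1.14, 1.64, 1.24 and 2.24 in the control group and 1.29, 0.910, 1.12 and 0.460 in the stress group. Control replicate 4 was the highest and stress replicate 4 the lowest, and the groups overlapped. Hba-x, the zeta chain, had 9, 4, 2 and 4 counts in the control samples and 2, 2, 2 and 0 in the stress samples, too few for the edgeR fit. A library with 0 counts allows an expected count of up to 3, which is 0.144 to 0.173 per 1000000 adult counts. This is not a detection limit, since samples below it can hold counts. The stress values of Hba-x lay at or below 0.107. In the control group 3 samples lay above this limit (0.468, 0.199 and 0.199) and replicate 3 lay below it (0.0988). The difference in Hba-x was not tested. Hbb-bh1 had 2 counts, both in control replicate 4, and Hbb-bh2 had none, so neither could be compared. Summed, the 4 embryonic chains came to 27 to 51 counts in a control library and 8 to 26 in a stress library, and to 1.33 to 2.54 and 0.460 to 1.40 per 1000000 adult haemoglobin counts, where the groups overlapped.

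**Figure D4:**
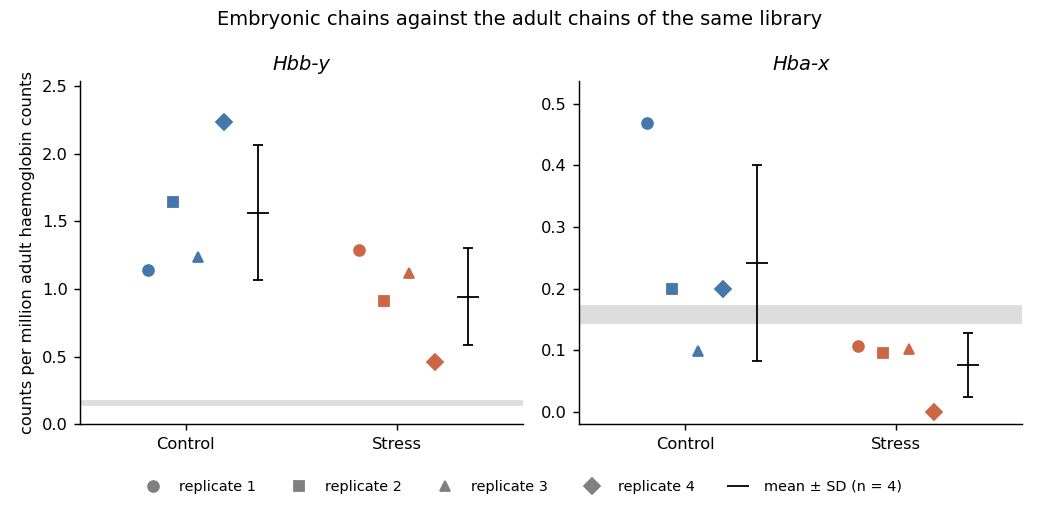
Counts of Hbb-y (left) and Hba-x (right) per 1000000 adult haemoglobin counts of the same library, 1 point per sample, with mean and SD (n = 4) as a black bar. The grey band is the level that a library with 0 counts allows (0.144 to 0.173), above which every Hbb-y point lies and below which every stress point of Hba-x lies. It is not a detection limit, and points below it can hold counts.

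The other rows of the family in the table were Hbq1a and Hbq1b, the theta genes of the alpha cluster. Hbq1a had 1337 to 1592 counts in the control samples and 1199 to 1563 in the stress samples, and Hbq1b 1298 to 1718 and 1090 to 1498. Hbq1a was 1.06 higher on the log2 TMM scale (SE 0.31, edgeR, adjusted p = 0.0428) and Hbq1b 0.98 (SE 0.34, adjusted p = 0.0765), against 0.21 and 0.16 on the total-count scale (adjusted p = 0.609 and 0.685). Per 1000000 adult haemoglobin counts both rows together had 142 to 165 counts in the control group and 132 to 153 in the stress group. They also stood among the genes whose pattern was most like that of the summed adult chains. Over the 8 samples, by Pearson's r of log2 counts per 1000000 total counts, these were Hbq1a (0.918), Ube2m (0.906), Bola3 (0.901), Slc25a51 (0.900) and Sec61g (0.895). After the group means were taken off they were Ost4 (0.969), Hbq1b (0.918), Gm10651 (0.909, with only 6 to 13 counts a sample), Hbq1a (0.904) and Ctsf (0.900). The points share the depth and the total of their library, these are the highest of all tested genes, and the values are descriptions. For Alas2 the same measure was 0.556 over the 8 samples, and for Slc4a1, the band 3 anion exchanger of the red cell membrane, 0.227.

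The other genes of red cells were described by 4 lists. On the TMM scale 0 of their tested genes were called, where 1.69% of all tested genes were called up. Their median log2 fold changes are given beside those of all tested genes, -0.02 with TMM and -0.82 with total counts. Of 8 heme synthesis enzymes, 6 were above 0 and 2 below, with a median of 0.52, and 1 was higher at an adjusted p below 0.05, against 10.4% of all tested genes. This was Urod, uroporphyrinogen decarboxylase (log2 fold change 0.93, SE 0.27, edgeR, adjusted p = 0.0401). Fech, which inserts the iron (0.79, adjusted p = 0.148), and Alas2 (0.85, SE 0.43, adjusted p = 0.197) did not pass. With total counts the median was -0.29, and Alas2 stood at 0.07 (adjusted p = 0.667). On that scale 0 of the 8 were higher and 2 were lower at an adjusted p below 0.05, against 0.444% and 49.6% of all tested genes.

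Of the 15 globin regulators and chaperones, 13 were tested, and 4 were higher and 1 lower at an adjusted p below 0.05, against 10.4% and 3.69% of all tested genes. The median was 0.24 with TMM and -0.53 with total counts. The erythroid and megakaryocyte transcription factors Tal1 (0.95, SE 0.14, edgeR, adjusted p = 0.00132), Nfe2 (0.99, SE 0.16, adjusted p = 0.00242) and Gata1 (0.89, SE 0.16, adjusted p = 0.00319) and the GATA1 cofactor Zfpm1 (0.58, SE 0.13, adjusted p = 0.00970) were higher, each with a log2 fold change under 1. All 4 are also expressed in platelets or their precursors. Bcl11a, a repressor of embryonic globin genes that B cells also express, was lower (-0.58, SE 0.17, adjusted p = 0.0344). With total counts Bcl11a stood at -1.31 (adjusted p = 0.00804) and was called, while Tal1, Nfe2, Gata1 and Zfpm1 lay between -0.20 and 0.23 and none of the 4 passed. On that scale 0 of the 13 were higher and 5 were lower at an adjusted p below 0.05, against 0.444% and 49.6% of all tested genes. Klf1, an activator of adult beta globin, had 0 to 21 counts a sample and was not tested. Ahsp, the chaperone of free alpha chains, was not analysed here.

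Of the 18 genes of the red cell membrane and skeleton, 17 were tested and all 17 had a log2 fold change above 0 on the TMM scale, with a median of 0.89, and 3 were higher at an adjusted p below 0.05, against 10.4% of all tested genes. These were the water channel Aqp1 (0.91, SE 0.18, edgeR, adjusted p = 0.00655), the glycophorin Gypc (0.49, SE 0.13, adjusted p = 0.0284) and Xk (0.55, SE 0.17, adjusted p = 0.0439). Slc4a1 (0.76, SE 0.36, adjusted p = 0.181) did not pass. With total counts 13 of the 17 were above 0, with a median of 0.16, and 0 passed. Of the 18 genes of reticulocyte maturation, 17 were above 0 on the TMM scale, with a median of 0.99, and 3 were higher at an adjusted p below 0.05, against 10.4% of all tested genes. With DESeq2 9 of the 18 were higher at this threshold and 3 were called up, against 12.2% and 2.45% of the genes with an adjusted p. The 3 higher in the edgeR fit were the erythropoietin receptor Epor (1.24, SE 0.31, adjusted p = 0.0198, with 15 to 64 counts a sample), Gclm, a subunit of the enzyme that begins glutathione synthesis (1.03, SE 0.30, adjusted p = 0.0425), and Ubb, a ubiquitin gene (1.05, SE 0.32, adjusted p = 0.0443). Slc25a37, the mitochondrial iron carrier mitoferrin (0.97, SE 0.32, adjusted p = 0.0603), did not pass. Tfrc, the transferrin receptor, which activated lymphocytes also express, was the one gene of this list below 0 (-0.21, adjusted p = 0.180), and with total counts it was lower (-1.02, adjusted p = 0.0160). With total counts the list had a median of 0.22.

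**Figure D5:**
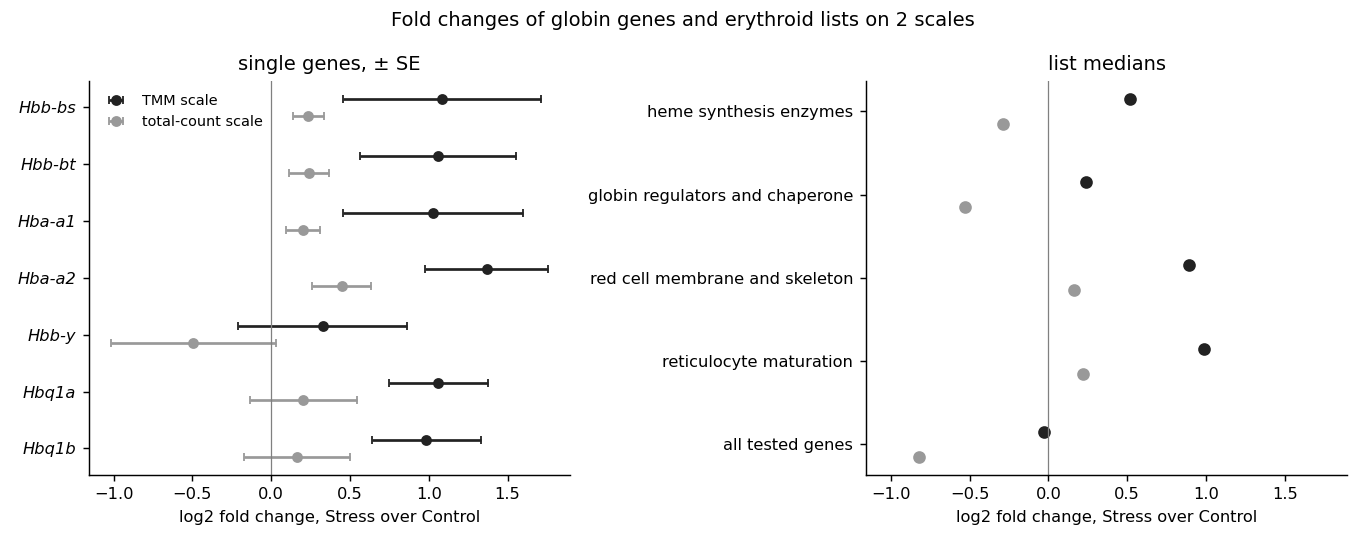
Log2 fold change of stress over control for the 7 tested globin genes with SE (left) and the medians of the 4 erythroid lists and of all tested genes (right), on the TMM scale in black and the total-count scale in grey. The 4 adult chains lie between 1.03 and 1.37 on the TMM scale and between 0.20 and 0.45 on the total-count scale, and the median of all tested genes lies at -0.02 and -0.82.

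Set against the summed counts of the same library for each list, the adult chains had 23.4 to 29.9 counts per count of the heme synthesis list in the control group and 24.5 to 33.4 in the stress group. Per count of the reticulocyte list they had 23.6 to 31.3 and 22.1 to 31.7, and per count of the membrane list 176 to 273 and 141 to 395. The groups overlapped in each. Per count of the regulators, which are not confined to red cells, the values were 896 to 1558 in the control group and 1280 to 2969 in the stress group.

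Markers of other blood cells were summed per library. Per 1000000 total counts, the 10 B cell markers summed to 1085 to 2320 in the control group and 451 to 1045 in the stress group, without overlap, led by Cd79a (212 to 432 and 107 to 206) and Cd79b (144 to 327 and 78.9 to 150). For 2756 of the 11718 tested genes, every stress sample lay below every control sample on this scale. The T cell markers, led by Tcf7 and Lef1, summed to 530 to 996 and 253 to 534. The neutrophil markers, led by Csf3r and S100a9, summed to 349 to 431 and 334 to 990, the platelet markers, led by Ppbp and Itga2b, to 2210 to 2587 and 2081 to 3730, and the monocyte markers, led by F13a1 and Csf1r, to 210 to 303 and 143 to 451. The groups overlapped in these 4 sums. On the TMM scale, per 1000000 scaled counts, the neutrophil sums were 197 to 386 and 607 to 900, the platelet sums 1458 to 2196 and 3345 to 4104, the monocyte sums 142 to 210 and 226 to 430, and the B cell sums 1061 to 1308 and 722 to 949, all without overlap, while the T cell sums overlapped. On that scale 8 of 10 neutrophil, 4 of 10 platelet and 3 of 10 monocyte markers were called up, against 1.69% of tested genes. At an adjusted p below 0.05, 6 of 10 B cell and 1 of 10 monocyte markers were lower, against 3.69% of tested genes. Of the 10 monocyte markers, 8 had a log2 fold change above 0 and 2 below. No marker of the 5 lists was at 0 in any sample. The part of these cell types in the shares of the haemoglobin chains was not tested.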

How the data were processed

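The authors deposited 1 table of raw read counts per gene symbol, with a column for each of the 8 samples and no normalization. The submitters' processing notes name HISAT2, featureCounts and mm10, and the settings, the annotation and the use of strand are not given in the sources used here. Samples were grouped by their labels. The labels number the samples of a group without saying that each is a separate mouse, so p-values measure only the spread between these samples, which may be technical.

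The 11718 genes that reached 10 counts in 4 or more samples were fitted in R 4.3.3 with edgeR 4.0.16 (TMM, robust quasi-likelihood test, Benjamini-Hochberg over all tested genes) and called at the study's thresholds. The fit was tested on simulated data made from these samples. Ratios and shares were compared with two-sided exact permutation tests over 70 assignments (Python 3.11.15, SciPy 1.17.1). Total-count scaling, DESeq2 1.42.0 (DESeq2 being the study's own method), other filters, leave-one-out fits and a replicate block were alternatives.

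The members and lists were chosen with earlier results of these data known. Named were the 8 chains, every row above 5% of a sample, the other haemoglobin rows, the 4 tested genes with the smallest p of each erythroid list, Alas2, Ahsp, Klf1, Gata1, Bcl11a, Slc4a1 and Tfrc, the 2 most abundant genes of each marker list, and the 5 genes most like the adult sum, with and without group means (log2 of counts plus 0.5 per 1000000 total counts). Some genes that the rule names are not reported here. Intervals and limits cover counting error only, and reads are not independent molecules.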

Additional observations from a re-analysis of the deposited data

Results flagged for a closer look

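In groups of 4, the gap between the highest or lowest sample and its nearest neighbour was set against the whole range (Dixon's test at 95%). Of 70 groups tested, 7 were picked out, and chance picks out about 1 in 20 groups. Control replicate 3 was the highest of its group in Hbb-bs counts (12213652), and control replicate 1 was the lowest in the summed counts of the 8 chains (19217974). Stress replicate 4 was the lowest of its group in Hbq1b counts (1090) and in Hba-x, with 0 counts and therefore 0 per 1000000 adult haemoglobin counts. Control replicate 4 held the 2 counts of Hbb-bh1, or 0.0994 per 1000000 adult haemoglobin counts. These counts of Hba-x and Hbb-bh1 lie under the 3 counts that a library with 0 allows.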

How the results depend on the processing

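The number of chains called was 0, and it was 1 with DESeq2 (Hba-a1), 1 at an adjusted p below 0.05 without a fold threshold (Hba-a2) and 0 to 1 when each sample was left out (Hba-a2, without stress replicate 4). The direction of the 4 adult chains did not turn under any alternative. Hbb-y turned to -0.49 with total counts and to -0.0126 without stress replicate 3, and spanned -0.0126 to 0.83 when each sample was left out. The difference in the log2 alpha to beta ratio spanned -0.0579 to 0.0164 when each sample was left out and turned to 0.0164 without control replicate 2 and 0.0139 without stress replicate 3. That in the Hbb-bt share of beta counts spanned -0.286 to 0.389 percentage points and turned to -0.286 without control replicate 3 and to -0.0701 without stress replicate 1. The differences in the Hba-a2 share of alpha counts (0.101 to 0.367 points), the Hbb-bs to Alas2 ratio (0.06 to 0.23) and the share of the 8 chains (7.55 to 12.3 points) kept their direction. The exact test of the shares of single chains was added after seeing the data, and without stress replicate 4 the difference was 7.50 points for Hbb-bs and 0.142 for Hba-a2. The number of genes called in the erythroid lists was 0, and it was 2 with total counts (both down), 3 with DESeq2, 1 with the replicate block and 0 to 7 when each sample was left out, with 7 without control replicate 4 and 2 at most without any other. Of all 11718 tested genes, 198 were called up in the main fit, 189 with the replicate block, and 729 were called down with total counts. Without control replicate 4, 340 of 11595 were called up, and DESeq2 called 2.45% of genes with an adjusted p up. With total counts the list medians were -0.29 (heme synthesis), -0.53 (regulators), 0.16 (membrane) and 0.22 (reticulocyte). The cause of these shifts was not tested.

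The labels give same-numbered control and stress samples nothing in common but the number. Their deviations from the group means correlated at 0.0621, 0.00044, -0.0445 and -0.160, and 1 of 4 matched its own number best. These 4 values cannot settle whether same-numbered samples were paired in a way that the labels do not state. With the replicate block 0 chains were called, and the adjusted p of Hba-a2 was 0.133. The share without mitochondrial rows was not run, since the table lists no such row. Depth limits the embryonic chains, of which only Hbb-y had enough counts to be fitted.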
